A study of Mus musculus with 18 samples.

Results

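A total of 84 exon-level probe sets, in 71 genes, were set apart in wild-type mouse embryonic fibroblasts, or MEFs, which are connective tissue cells cultured from embryos. They stood away from AGO2 null and from Dicer null MEFs in the same direction, while the median level of their gene stayed near-constant. Of these, 62 probe sets in 53 genes were lower in wild type and 22 probe sets in 18 genes were higher. Members were chosen on the splicing index: from the log2 value of the probe set in a sample, the gene level is subtracted, which is the median over the probe sets of that gene in the sample. The exon-level table held 229581 probe sets, of which 209279 had 1 gene symbol. Genes needed at least 4 probe sets, a mean level at or above the median of genes, which left 7260 genes with 112101 probe sets, and group means of the level within 0.5 of each other. These steps left 64945 candidate probe sets in 4098 genes. A candidate became a member when its mean index in wild type differed by 1 or more, with the same sign, from both null lines, and the null lines differed from each other by under 0.5. The 84 members were 0.129% of the candidates. All 3 contrasts and all 9 samples entered this choice, so the index differences given here describe the members and carry no test.

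The genotypes were AGO2 -/-, Dicer -/- and wild type, each with 3 arrays (Affymetrix GeneChip Mouse Exon 1.0 ST), and every array was entered as a gene-level and an exon-level sample, 18 samples in all. All cells were MEFs grown for 3 days to subconfluency in DMEM with 7% fetal calf serum and penicillin-streptomycin, without further treatment, and RNA was labelled with the NuGEN Applause WT-Amp Plus ST kit. Wild-type and Dicer null cells shared a source, and AGO2 null cells had a different one. The labels name no more than 1 line per genotype. They speak of biological replicates without naming separate lines, animals or litters. A difference of wild type from both null lines therefore cannot be told apart from a difference between cell lines. The spread between replicates may be technical.

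Splicing joins exons of a transcript after introns are removed, and the same gene can give transcripts that include or leave out an exon, or that start or end at different places. Exon arrays read each stretch of a gene with its own short probes, so a change in the use of a stretch can appear as a probe set that leaves the level of the rest of its gene. A departing probe set does not by itself show such a change. Whether sequence differences under the probes had a part here was not tested. Ago2 encodes the Argonaute protein that binds small RNAs and cuts their targets, and Dicer1 encodes the nuclease that cuts microRNAs out of their hairpin precursors. The series asked, by its title, about a link of Argonaute proteins with silent chromatin and splicing.

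Probe set coordinates and probe letters were not used here, so the place of a member within its gene is not given. Promoters are shown for 3 genes of chromosome 12 in which several probe sets moved together: Tmem18, with 4 members, and Scfd1 and Heatr5a, with 2 members each and within 10 genes of each other. Each runs 5′ to 3′ on the strand of its gene, from 250 bases before to 50 bases after the annotated start, in RefSeq's GRCm38.p6. Capitals mark matches on either strand to CCAAT or to GGGCGG, and TATAAA was also searched.
Tmem18, chr12:30584193-30584492, plus strand: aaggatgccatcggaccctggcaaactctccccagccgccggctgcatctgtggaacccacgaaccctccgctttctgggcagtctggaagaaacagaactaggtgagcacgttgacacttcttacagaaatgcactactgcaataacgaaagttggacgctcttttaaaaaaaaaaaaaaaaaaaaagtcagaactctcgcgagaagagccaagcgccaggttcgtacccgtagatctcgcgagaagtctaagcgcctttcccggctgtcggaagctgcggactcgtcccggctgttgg
Scfd1, chr12:51377263-51377562, plus strand: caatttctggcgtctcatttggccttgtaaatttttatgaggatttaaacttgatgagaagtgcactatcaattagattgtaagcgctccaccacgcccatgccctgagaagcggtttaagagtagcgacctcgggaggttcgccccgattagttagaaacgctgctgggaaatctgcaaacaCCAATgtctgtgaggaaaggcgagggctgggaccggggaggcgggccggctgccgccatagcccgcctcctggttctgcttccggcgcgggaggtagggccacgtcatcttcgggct
Heatr5a, chr12:51971272-51971571, minus strand: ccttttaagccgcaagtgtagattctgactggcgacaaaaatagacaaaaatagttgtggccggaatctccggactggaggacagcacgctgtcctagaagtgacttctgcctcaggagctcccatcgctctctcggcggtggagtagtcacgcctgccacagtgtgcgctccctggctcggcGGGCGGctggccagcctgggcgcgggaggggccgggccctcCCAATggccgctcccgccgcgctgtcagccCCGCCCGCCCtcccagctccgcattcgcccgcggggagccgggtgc
The Tmem18 window held none of the 3 motifs, that of Scfd1 held 1 CCAAT, and that of Heatr5a held 1 CCAAT and 3 matches to GGGCGG, of which those written as CCGCCC on the printed strand overlap in 1 run. Of 32851 mouse promoters of this length, 37.4% held CCAAT, 35.7% held GGGCGG and 13.6% held TATAAA. A match describes these letters and is not a measured site.

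Median log2 values of the 9 arrays ran from 6.93 to 7.10 in the exon-level table. Ago2 ran from 6.65 to 6.92 in the gene-level table in AGO2 null cells and from 8.20 to 8.24 in wild type, and Dicer1 from 8.35 to 8.42 in Dicer null cells and from 9.17 to 9.20 in wild type. Of 18 fibroblast genes measured, 18 lay above the median of genes, 6.74, in wild type and in AGO2 null and 12 in Dicer null, where Lum was at 4.06 and Twist1 at 5.24. In wild type, AGO2 null and Dicer null, 1, 3 and 2 of 8 epithelial genes lay above it, 1, 1 and 1 of 8 leukocyte, 1, 1 and 0 of 10 endothelial, and 2, 1 and 0 of 8 neural genes. Some of these moved with wild type against both null lines: the keratin gene Krt19 was at 5.56 in wild type against 9.47 and 9.08, the endothelial gene Erg at 7.79 against 6.02 and 5.70, and the neural gene Stmn2 at 6.85 against 4.05 and 4.03. Others of the same lists did not. The endothelial gene Pecam1 was at 5.48 in each genotype and Kdr at 5.53 in wild type against 6.78 and 5.41. The neural gene Dcx was at 4.98 against 4.94 and 6.20. The part of any of these genes in the members' differences was not tested. The fibroblast genes had a median of 9.71 in wild type, 10.27 in AGO2 null and 8.56 in Dicer null. Wild-type replicate 2 and AGO2 null replicate 2 stood apart from their groups: 476 and 487 candidates lay at least 1 below both other samples of the group there, against 56 to 107 in the other 7 samples. Wild-type replicate 2 was the lowest of the wild-type samples in 36 of the 62 lower members, with a median deviation of -0.45, and lay at least 1 below both others in 12 of them. The rule applied without that sample gave 90 members, 40 higher and 50 lower, of which 55 were among the 84. Without both samples that stood apart it gave 87, 35 higher and 52 lower, of which 45 were among the 84.

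**Figure D1:**
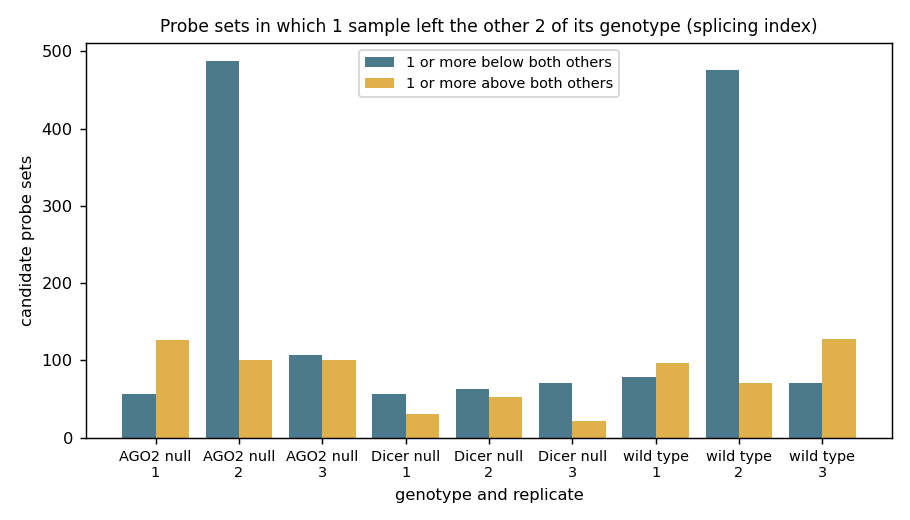
Number of candidate probe sets (vertical axis) whose splicing index in 1 sample lay 1 or more below (blue) or above (yellow) both other samples of its genotype, for each of the 9 samples (horizontal axis). AGO2 null replicate 2 and wild-type replicate 2 reach 487 and 476 probe sets below, and no other sample passes 107.

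The members were mostly small departures with a long tail. The lesser of a member's 2 absolute index differences had a median of 1.27 (log2) and reached 2 or more in 18, of which 13 were lower and 5 higher in wild type. The lower members differed from AGO2 null by -5.56 to -1.002 (median -1.40) and from Dicer null by -5.27 to -1.002 (median -1.41). The higher members differed by 1.05 to 3.24 (median 1.46) and by 1.01 to 3.35 (median 1.32). The 3 wild-type samples lay outside the range of the 6 null samples in 63 of the 84 members, 18 higher and 45 lower. Among all 64945 candidates this held for 6.97%, 4.04% higher and 2.93% lower, and since the same contrasts chose the members nothing is read from it. Each of the 3 wild-type samples taken alone lay 1 or more from both null means in 39 members, 11 higher and 28 lower. This count rests on the same contrasts and its share among all candidates is not given, so nothing is read from it either.

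**Figure D2:**
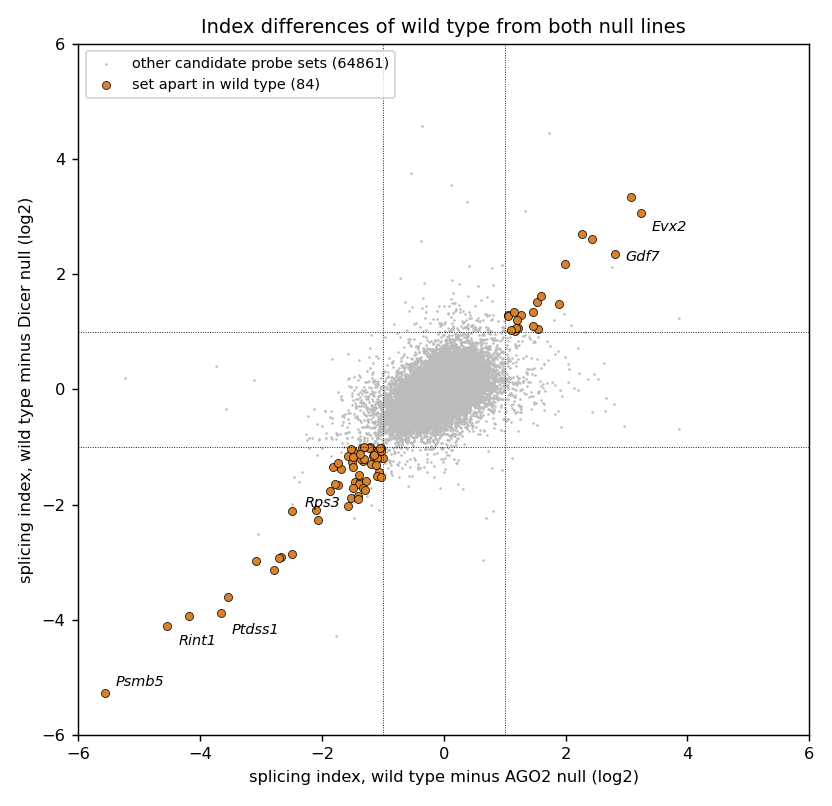
Splicing index of wild type minus AGO2 null (horizontal axis, log2) against wild type minus Dicer null (vertical axis, log2) for the 64945 candidate probe sets, with the 84 members as orange points and dotted lines at 1 and -1. The members fill the lower left and upper right corners, from Psmb5 at -5.56 and -5.27 to Evx2 at 3.24 and 3.07.

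The largest departure was in Psmb5, the subunit of the 20S proteasome with chymotrypsin-like activity. Its probe set 5037994 had log2 values of 9.70, 9.63 and 9.79 in the AGO2 null samples, 9.25, 9.28 and 9.27 in the Dicer null samples and 3.89, 4.10 and 3.91 in wild type. Wild type was far below both null lines and the replicates of each group lay close together. Its index was -0.96 ± 0.15 for AGO2 null, -1.24 ± 0.02 for Dicer null and -6.52 ± 0.08 for wild type (SD, n = 3 each), which is 47.1-fold below AGO2 null and 38.7-fold below Dicer null on the linear scale. Further index differences are given as a pair, wild type minus AGO2 null first and wild type minus Dicer null second. The other 7 probe sets of Psmb5 all lay within 0.5 of both null lines, and the gene level was 10.48 in wild type, 10.66 in AGO2 null cells and 10.51 in Dicer null cells. In bulk cultures a change in the mix of cells and a change within cells cannot be told apart. A dim value has a floor that differs between probe sets, so folds against dim values depend on that floor, here and below. With an offset of 50 on the linear scale, the differences of Psmb5 were -3.58 and -3.32, or 11.96-fold and 9.98-fold, and 25 of the 84 members, 18 lower and 7 higher, kept both differences at 1 or more.

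The members below are ordered by what their genes are known to do, beginning with membrane traffic and membrane lipids. Rint1, with the next largest departure, encodes a subunit of the tethering complex for transport from the Golgi to the endoplasmic reticulum. Its probe set 5233615 read 2.70, 3.83 and 2.48 in the wild-type samples, 7.54, 7.14 and 7.66 in AGO2 null and 7.59, 7.23 and 6.72 in Dicer null. The wild-type samples were all below the null samples, and wild-type replicate 2 was the highest of the 3. The index was 0.25 ± 0.01 for AGO2 null, -0.17 ± 0.35 for Dicer null and -4.28 ± 1.02 for wild type (SD, n = 3 each), with differences of -4.54 and -4.12. Of the other 17 probe sets of the gene, 9 lay within 0.5 of both null lines and none was lower by 1 or more in both. Ptdss1 encodes the enzyme that makes phosphatidylserine from phosphatidylcholine, and probe set 4927089 read 2.83, 3.77 and 4.09 in the wild-type samples, 7.78, 7.07 and 8.23 in AGO2 null and 7.40, 7.18 and 7.76 in Dicer null. The groups did not overlap, and the index differed by -3.65 and -3.88.

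Scfd1, which encodes the Sec1/Munc18 protein of fusion between endoplasmic reticulum and Golgi membranes, had 2 members among 28 probe sets. Probe set 4847276 read 9.40, 8.48 and 9.40 in the AGO2 null samples, 8.64, 8.79 and 8.58 in the Dicer null samples and 5.77, 4.89 and 5.48 in wild type. Probe set 4786973 read 7.94, 7.01 and 8.07 in the wild-type samples, 10.68, 10.39 and 10.60 in AGO2 null and 10.25, 10.29 and 10.28 in Dicer null. In both, every wild-type sample was below every null sample, and wild-type replicate 2 was the lowest. The index differed by -3.55 and -3.61 in the first and by -2.71 and -2.92 in the second. A non-member, probe set 5516095, differed by -3.05 and -2.51 and was left out because the null lines were 0.54 apart. Another, 4577281, differed by -1.37 and -0.86, and 22 of the 26 other probe sets of the gene lay within 0.5 of both null lines.

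Heatr5a, a gene for a protein of HEAT repeats, had 2 members among 44 probe sets, and lies 6 protein-coding genes from Scfd1 on chromosome 12. Probe set 4494757 read 4.20, 3.65 and 3.75 in the wild-type samples, 6.94, 6.29 and 7.12 in AGO2 null and 6.49, 6.997 and 6.78 in Dicer null. Probe set 4649922 read 6.90, 7.07 and 7.09 in the AGO2 null samples, 7.34, 6.88 and 7.05 in the Dicer null samples and 5.17, 5.73 and 4.36 in wild type. Wild type was the lowest group in both without overlap. The index differed by -3.09 and -2.98 and by -2.10 and -2.09. Of the other 42 probe sets, 5 were lower in wild type by over 0.5 against both null lines and none by 1 or more. Snx6 encodes a sorting nexin that works with retromer, and lies 10 genes from Heatr5a. Its probe set 5428585 read 5.99, 5.61 and 5.84 in the AGO2 null samples, 6.53, 6.32 and 6.28 in the Dicer null samples and 5.50, 4.22 and 4.31 in wild type, with index differences of -1.30 and -1.75. Wild-type replicate 1 came close to the AGO2 null samples in log2 value, and 8 of the other 9 probe sets lay within 0.5 of both null lines.

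Tmem18, a gene for a membrane protein of the nuclear envelope, had the most lower members, 4 of 17 probe sets. Probe set 5557480 read 2.66, 2.35 and 2.43 in the wild-type samples, 7.29, 6.94 and 7.17 in AGO2 null and 6.77, 6.42 and 6.77 in Dicer null. Probe set 5282519 read 7.57, 7.66 and 7.15 in the AGO2 null samples, 7.54, 7.59 and 7.55 in the Dicer null samples and 4.35, 4.11 and 4.11 in wild type. These were the 2 with the tightest wild-type samples, and no wild-type value came near a null value. Probe set 4698622 read 8.26, 8.29 and 8.10 in the AGO2 null samples, 8.27, 8.23 and 8.16 in the Dicer null samples and 5.31, 5.70 and 4.22 in wild type, and 4380996 read 6.17, 6.56 and 5.43 in the wild-type samples, 8.94, 9.15 and 8.95 in AGO2 null and 9.07, 9.19 and 9.19 in Dicer null. In these wild-type replicate 3 was the lowest, and the groups stayed apart. The 4 indices differed from AGO2 null by -4.18, -2.80, -2.67 and -2.49 and from Dicer null by -3.94, -3.14, -2.92 and -2.86, in that order. The other 13 ran from -0.07 to 1.53 against AGO2 null and from -0.01 to 0.97 against Dicer null. The 3 gene-level medians were 7.35, 7.11 and 6.88, and the row of Tmem18 in the gene-level table differed by -0.06 and -0.0002.

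Slc9a8 encodes a sodium and proton exchanger of the Golgi and endosomes, and probe set 4678976 read 7.32, 6.18 and 7.55 in the AGO2 null samples, 7.71, 7.60 and 7.68 in the Dicer null samples and 5.89, 5.69 and 6.01 in wild type, with index differences of -1.28 and -1.59. AGO2 null replicate 2 was the nearest to wild type there. Tmem258 encodes a subunit of the oligosaccharyltransferase, and probe set 4615576 read 5.003, 3.41 and 3.92 in the wild-type samples, 6.18, 4.95 and 6.08 in AGO2 null and 6.22, 5.99 and 6.46 in Dicer null. Wild-type replicate 1 exceeded AGO2 null replicate 2, so the log2 values overlapped, and the index differed by -1.52 and -1.89. Epn2, an adaptor of clathrin-coated pits, differed by -1.10 and -1.14. Mtmr2, a phosphatase of phosphoinositides, differed by -1.08 and -1.06. Sptlc1, a subunit of serine palmitoyltransferase, differed by -1.06 and -1.43. Plscr3, a phospholipid scramblase, differed by -1.20 and -1.29, and Pomt2, a mannosyltransferase, by -1.11 and -1.32. The wild-type samples of Plscr3 lay between 2.38 and 2.43, and AGO2 null replicate 2 was at 2.34. In index, Epn2, Plscr3 and Pomt2 overlapped with null samples, and Mtmr2 and Sptlc1 did not.

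**Figure D3:**
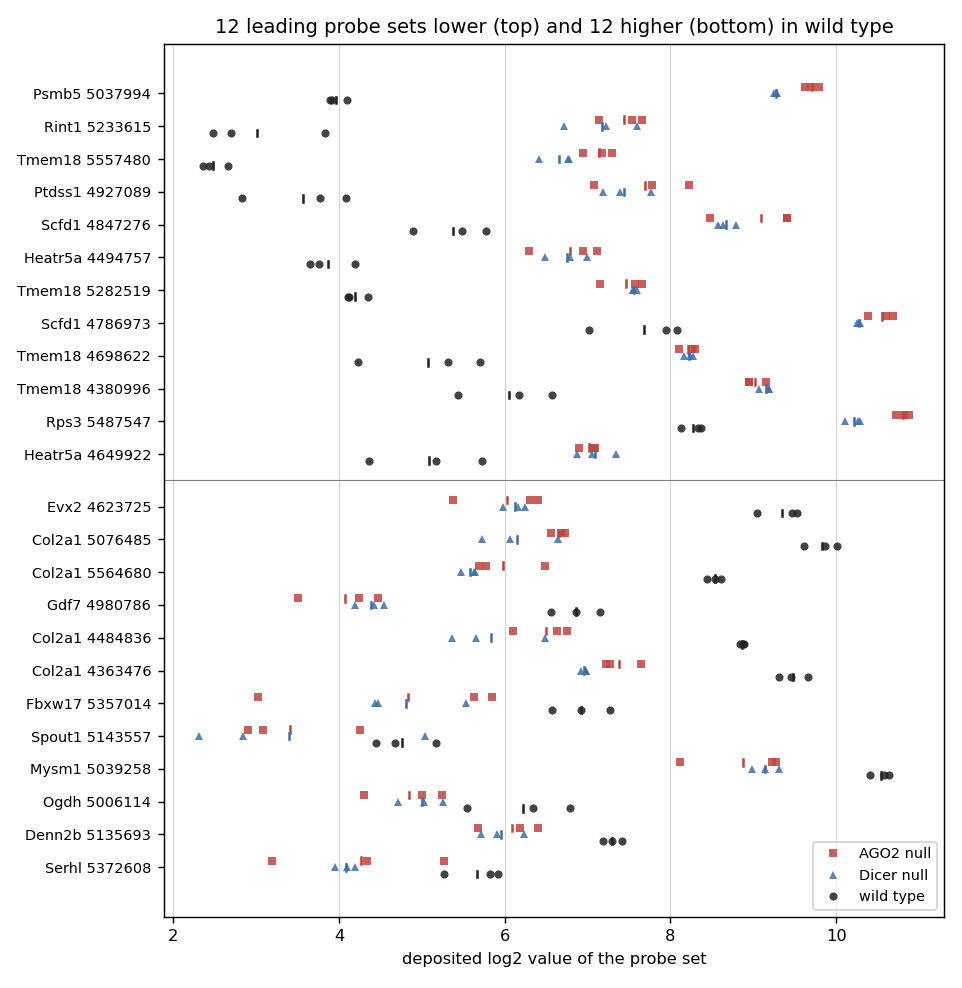
Deposited log2 value (horizontal axis) of the 12 leading lower (top) and 12 leading higher (bottom) probe sets in each AGO2 null (red squares), Dicer null (blue triangles) and wild-type (black circles) sample, with short bars at group means. Wild type overlaps with Dicer null replicate 3, at 5.04, in Spout1, and lies level with AGO2 null replicate 3, at 5.26, in its lowest sample of Serhl 5372608. In the other 22 rows it is clear of both null lines.

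Genes of translation, mitochondria and protein turnover gave lower members with 1 probe set each, beside Psmb5. Rps3 encodes a protein of the small ribosomal subunit, and probe set 5487547 read 10.82, 10.72 and 10.88 in the AGO2 null samples, 10.11, 10.29 and 10.26 in the Dicer null samples and 8.34, 8.37 and 8.12 in wild type. Its index was -0.14 ± 0.06 for AGO2 null, -0.52 ± 0.08 for Dicer null and -2.63 ± 0.11 for wild type (SD, n = 3 each), and the other 6 probe sets all lay within 0.5 of both null lines. The index was 5.63-fold and 4.31-fold lower than in AGO2 null and Dicer null, and all 9 values lay above 5.43, the 25th percentile of probe set means. Mrps35 and Mrps5 encode proteins of the small mitochondrial ribosomal subunit. Mrps35 5126972 read 4.87, 4.43 and 5.72 in the wild-type samples, 6.47, 5.50 and 6.75 in AGO2 null and 6.44, 6.55 and 6.39 in Dicer null, with index differences of -1.16 and -1.16. Mrps5 4474342 read 6.11, 6.01 and 6.03 in the AGO2 null samples, 5.53, 6.38 and 6.01 in the Dicer null samples and 5.32, 4.71 and 4.46 in wild type, with differences of -1.21 and -1.01. Wild type was clear of the null samples in Mrps5, whereas in Mrps35 wild-type replicate 3 exceeded AGO2 null replicate 2. Ndufb9, an accessory subunit of respiratory complex I, had probe set 4887648 at 8.38, 7.54 and 8.44 in the AGO2 null samples, 7.41, 7.998 and 7.54 in the Dicer null samples and 7.69, 5.24 and 6.54 in wild type. Its wild-type samples spread widely and replicate 1 lay among the null samples. The index differed by -1.57 and -1.15.

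Fastkd3, a mitochondrial RNA-binding protein, differed by -1.41 and -1.86 with replicates close together. Lonp2, the Lon protease of peroxisomes, differed by -1.33 and -1.24, and wild-type replicate 2 at 4.74 was alone far below 7.16 and 7.46. Aimp1, a scaffold of the aminoacyl-tRNA synthetase complex, differed by -1.14 and -1.08. Naa35, a subunit of the N-terminal acetyltransferase NatC, differed by -1.14 and -1.10, and its wild-type samples read 8.60, 6.56 and 8.75. Dnajb6, a co-chaperone of Hsp70, differed by -1.74 and -1.66 and overlapped with both null lines. Armcx1, an armadillo repeat protein of mitochondria, differed by -1.38 and -1.62, with a wild-type replicate 2 at 3.29 against 5.48 and 5.61. Rnf121 encodes a RING ubiquitin ligase of the endoplasmic reticulum and Golgi. Its probe set 4649322 read 3.71, 3.98 and 3.04 in the wild-type samples, 5.58, 4.54 and 4.54 in AGO2 null and 4.83, 4.93 and 4.55 in Dicer null, and differed by -1.38 and -1.64 without overlap.

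Kinases, phosphatase regulators and other signalling genes formed the next group. Pkia, an inhibitor of the catalytic subunit of protein kinase A, had 3 members among only 5 probe sets. Probe set 4860587 read 7.17, 5.49 and 6.75 in the AGO2 null samples, 6.76, 6.67 and 6.65 in the Dicer null samples and 4.41, 3.90 and 4.17 in wild type. Probe set 5394021 read 5.12, 3.01 and 4.75 in the wild-type samples, 6.40, 4.51 and 6.63 in AGO2 null and 5.77, 6.69 and 6.33 in Dicer null. Probe set 5286631 read 10.31, 9.85 and 10.29 in the AGO2 null samples, 10.33, 10.17 and 10.30 in the Dicer null samples and 8.72, 8.93 and 8.80 in wild type. Wild type was clear of the null lines in the first and the last, and overlapped with AGO2 null replicate 2 in the other. The index differed from AGO2 null by -2.07, -1.32 and -1.10 and from Dicer null by -2.28, -1.71 and -1.20. Of the remaining 2, probe set 4720897 differed by -0.86 and -0.74 and 4410316 by 0.02 and 0. The row of Pkia in the gene-level table was also lower, by -1.15 and -1.18, as were the 3 members and 4720897. The median of the 5 probe sets, at 7.08, 7.10 and 6.84, moved as 4410316 did. For Pkia a departure of single probe sets therefore cannot be told apart from a lower level of the gene as a whole.

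Map3k7, the kinase TAK1 of TGF-beta and innate immune signalling, had 2 members among 22 probe sets. Probe set 4636504 read 9.76, 9.72 and 9.82 in the AGO2 null samples, 9.15, 9.13 and 9.21 in the Dicer null samples and 8.35, 7.95 and 8.35 in wild type. Probe set 5291479 read 7.91, 6.79 and 7.77 in the wild-type samples, 9.14, 8.65 and 9.29 in AGO2 null and 8.36, 8.36 and 8.36 in Dicer null. Wild type was the lowest in both, and AGO2 null the highest. The index differed by -1.50 and -1.26 and by -1.49 and -1.18. Probe set 5550079 of the same gene went the other way, at 2.09 and 1.11, with null lines 0.98 apart. Traf3ip2, an adaptor of the interleukin-17 receptor, differed by -1.30 and -1.21. Styx, a pseudophosphatase, differed by -1.36 and -1.20. Cip2a, an inhibitor of protein phosphatase 2A, differed by -1.15 and -1.14 with wild-type samples at 6.57, 4.52 and 6.70. Cc2d1b, a C2 domain protein, differed by -1.41 and -1.90, with wild-type samples at 6.38, 3.01 and 3.25. The high sample of Cc2d1b lay near the top of the null range.

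Genes of RNA metabolism gave 2 probe sets of Pus7 and 1 each of 5 other genes. Pus7 encodes a pseudouridine synthase and neighbours Rint1 on chromosome 5 in the RefSeq order of protein-coding genes. Probe set 5079393 read 6.60, 7.35 and 6.01 in the AGO2 null samples, 6.79, 6.76 and 6.27 in the Dicer null samples and 5.01, 3.97 and 4.55 in wild type. Probe set 4602414 read 4.64, 5.72 and 4.95 in the AGO2 null samples, 4.77, 6.19 and 4.95 in the Dicer null samples and 3.63, 3.39 and 3.03 in wild type. Wild type lay below all null samples in both, although the null samples spread by over 1. The index differed by -1.79 and -1.64 and by -1.40 and -1.49. With an offset of 50 on the linear scale, the differences of 4602414 were -0.23 and -0.24. Of the other 22 probe sets, 17 lay within 0.5 of both null lines, and the gene-level row differed by -0.42 and -0.35. Pan2, the catalytic subunit of a deadenylase that shortens poly(A) tails, was the only member among 520 candidate probe sets of 22 RNA silencing genes. Its probe set 5202016 read 4.05, 3.26 and 4.31 in the AGO2 null samples, 3.94, 4.22 and 4.37 in the Dicer null samples and 2.62, 2.74 and 1.99 in wild type. All 9 values lay under 5.43, the index differed by -1.10 and -1.50, and an offset of 50 on the linear scale moved the first difference to 0.0366.

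The other members of that role were Znhit3, a factor of small nucleolar ribonucleoprotein assembly, at -1.46 and -1.62, and Mettl6, a methyltransferase of tRNA, at -1.49 and -1.34. Nol10, a nucleolar protein, differed by -1.03 and -1.06, and Apobec3, a cytidine deaminase that restricts retroviruses, by -1.69 and -1.38. Wild type was clear of the null samples in Nol10 and Apobec3. In Znhit3 the wild-type samples ran from 2.30 to 5.35 and in Mettl6 from 4.30 to 6.77, and both overlapped with the null samples.

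Genes of DNA repair, replication and the cell cycle gave a further group. Pclaf, a partner of the replication clamp PCNA, had the brightest values of these: probe set 4413453 read 11.13, 11.26 and 11.28 in the AGO2 null samples, 10.58, 10.62 and 10.52 in the Dicer null samples and 9.64, 9.59 and 9.34 in wild type. The groups were apart and tight, the index differed by -1.83 and -1.35, and this probe set was itself the row of Pclaf in the gene-level table. Babam2, of the BRCA1-A and BRISC complexes, differed by -1.87 and -1.76. Poli, a translesion DNA polymerase, differed by -1.49 and -1.71, and Parg, the glycohydrolase of poly(ADP-ribose), by -1.49 and -1.07. Melk, a mitotic kinase, differed by -1.04 and -1.53. Gmnn, the inhibitor of replication licensing, differed by -1.02 and -1.01, and Rangap1, the activator of the Ran GTPase, by -1.52 and -1.04. Hmgb2, a chromatin protein, differed by -1.22 and -1.01. In index, Babam2, Rangap1 and Hmgb2 had wild-type samples outside the null range, and Poli, Parg, Melk and Gmnn did not.

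Tmod3, which caps the slow-growing ends of actin filaments, was among the most reproducible members: probe set 4805753 read 10.26, 10.32 and 10.40 in the AGO2 null samples, 9.86, 9.95 and 9.80 in the Dicer null samples and 8.24, 8.13 and 8.06 in wild type. Its index was -0.05 ± 0.02 for AGO2 null, -0.51 ± 0.05 for Dicer null and -1.79 ± 0.05 for wild type (SD, n = 3 each), and the spread within groups, 0.04, was the smallest of all members. Macrod1, a hydrolase of ADP-ribose marks, was alike in this, with log2 values of 9.24, 9.19 and 9.20 in the AGO2 null samples, 8.85, 8.91 and 8.93 in the Dicer null samples and 8.12, 7.87 and 7.99 in wild type and differences of -1.38 and -1.13. Mrtfb, a coactivator of serum response factor, differed by -1.58 and -2.03, without overlap. Glmn, an inhibitor of cullin ubiquitin ligases, differed by -1.02 and -1.19, and its wild-type samples of 5.16, 3.87 and 6.55 reached into the null range. Crym, a protein that binds thyroid hormone, differed by -1.05 and -1.02. Oxt, the gene of the hormone oxytocin, differed by -1.34 and -1.02. Wild type was clear of the null lines in the last 2. The 2 members nearest the limit of 1 were Adamts7 5432311, of a secreted metalloprotease, at -1.31 and -1.002, and Dmrta2 5107921, of a transcription factor, at -1.002 and -1.19. Just outside lay Wdfy3 4448114 at -1.10 and -0.997 and Wbp11 5144755 at -1.07 and -0.997.

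**Figure D4:**
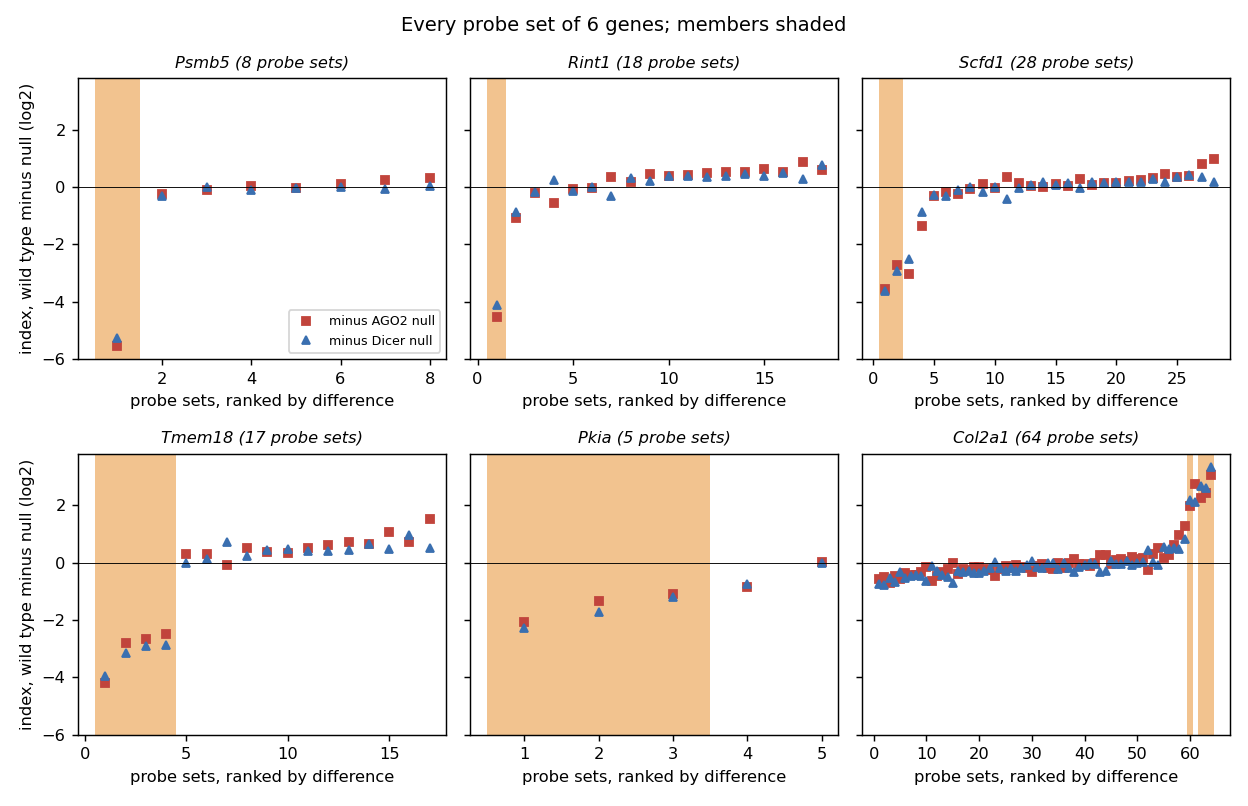
Index difference of wild type from AGO2 null (red squares) and from Dicer null (blue triangles) in log2 (vertical axis) for every probe set of Psmb5, Rint1, Scfd1, Tmem18, Pkia and Col2a1, ranked by difference (horizontal axis), with members shaded. Psmb5 has 1 departing probe set of 8, and Tmem18 has 4 of 17. The others of Psmb5 and most others of Scfd1 and Col2a1 lie within 0.5 of both null lines. In Rint1 9 others do, in Tmem18 only 4 and in Pkia 1. The others of Tmem18 have median differences of 0.53 from AGO2 null and 0.45 from Dicer null. Rank is not position in the gene.

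Among the higher members, Evx2, a homeobox gene beside the HoxD cluster, had the largest difference from AGO2 null: probe set 4623725 read 9.05, 9.46 and 9.53 in the wild-type samples, 6.30, 6.40 and 5.38 in AGO2 null and 6.24, 5.98 and 6.17 in Dicer null. Wild type was above every null sample, and the index was -0.91 ± 0.38 for AGO2 null, -0.74 ± 0.12 for Dicer null and 2.32 ± 0.36 for wild type (SD, n = 3 each). Of its other 11 probe sets, 10 lay within 0.5 of both null lines, and its gene-level row differed by 0.07 and 0.13. Gdf7, a ligand of the bone morphogenetic protein family, had probe set 4980786 at 4.24, 4.47 and 3.50 in the AGO2 null samples, 4.42, 4.20 and 4.55 in the Dicer null samples and 6.86, 6.56 and 7.15 in wild type. Its index differed by 2.81 and 2.35, and the other 6 probe sets lay within 0.5. Foxc1, a forkhead transcription factor of mesenchyme, differed by 1.21 and 1.07, and Tnfrsf10b, a death receptor for TRAIL, by 1.18 and 1.07, both without overlap.

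Col2a1, the collagen of cartilage, had 4 members among 64 probe sets, all higher in wild type. Probe set 5076485 read 10.02, 9.61 and 9.86 in the wild-type samples, 6.68, 6.73 and 6.55 in AGO2 null and 5.73, 6.64 and 6.06 in Dicer null. Probe set 5564680 read 6.48, 5.69 and 5.77 in the AGO2 null samples, 5.48, 5.63 and 5.64 in the Dicer null samples and 8.54, 8.44 and 8.61 in wild type. The wild-type samples of these 2 were far above and close together. Probe set 4484836 read 6.10, 6.63 and 6.75 in the AGO2 null samples, 5.65, 5.37 and 6.49 in the Dicer null samples and 8.88, 8.88 and 8.84 in wild type, and 4363476 read 9.66, 9.31 and 9.46 in the wild-type samples, 7.64, 7.22 and 7.27 in AGO2 null and 6.98, 6.92 and 6.98 in Dicer null. Again no null sample reached wild type. The index differed from AGO2 null by 3.07, 2.44, 2.26 and 1.99 and from Dicer null by 3.35, 2.61, 2.69 and 2.18, in that order. Probe set 5144656 was left out because the null lines were 0.64 apart, at 2.76 and 2.12 above them, and 5319705 stood at 1.28 and 0.83. Of the 60 probe sets that were no members, 45 lay within 0.5 of both null lines. The gene-level row of Col2a1 differed by 0.05 and 0.16. Col2a1 held all 4 members among 211 candidate probe sets of 5 collagen genes.

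The remaining higher members included enzymes and ubiquitin genes. Mysm1, a deubiquitinase of histone H2A, had probe set 5039258 at 9.22, 8.12 and 9.28 in the AGO2 null samples, 9.14, 9.30 and 8.98 in the Dicer null samples and 10.58, 10.41 and 10.63 in wild type. Wild type was the highest group, AGO2 null replicate 2 was below every other sample, and the index differed by 1.89 and 1.48. Fbxw17, an F-box protein with WD repeats, had probe set 5357014 at 7.27, 6.57 and 6.92 in the wild-type samples, 5.84, 3.03 and 5.63 in AGO2 null and 4.47, 4.44 and 5.53 in Dicer null, and differed by 1.59 and 1.62. AGO2 null replicate 2 was again far below, and wild type stayed clear. Of the 20 probe sets of Fbxw17, 9 others lay within 0.5 of both null lines and 3 others were higher by over 0.5 against both. Its gene level was 7.60 in wild type, 7.10 in AGO2 null and 7.11 in Dicer null. Spout1, a methyltransferase of the SPOUT fold, had probe set 5143557 at 2.90, 3.08 and 4.25 in the AGO2 null samples, 2.31, 2.84 and 5.04 in the Dicer null samples and 5.17, 4.44 and 4.68 in wild type. The groups overlapped through Dicer null replicate 3, and the differences were 1.53 and 1.51. Ogdh, a subunit of the 2-oxoglutarate dehydrogenase of the citric acid cycle, had probe set 5006114 at 5.24, 5.003 and 4.30 in the AGO2 null samples, 5.02, 4.71 and 5.25 in the Dicer null samples and 5.55, 6.34 and 6.79 in wild type. Wild type was above all null samples, and the index differed by 1.46 and 1.35. A non-member of Ogdh, probe set 5378617, moved alike, by 0.99 and 1.19, and 27 others lay within 0.5 of both null lines.

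Denn2b encodes a DENN domain protein that activates Rab GTPases, and probe set 5135693 read 7.41, 7.19 and 7.29 in the wild-type samples, 6.19, 6.41 and 5.68 in AGO2 null and 6.24, 5.71 and 5.91 in Dicer null. The groups were apart, and the index differed by 1.27 and 1.30. Serhl, a serine hydrolase-like gene, had 2 members among 20 probe sets. Probe set 5372608 read 4.34, 3.19 and 5.26 in the AGO2 null samples, 4.20, 3.95 and 4.10 in the Dicer null samples and 5.92, 5.27 and 5.82 in wild type. Probe set 4704106 read 7.60, 7.50 and 7.43 in the wild-type samples, 5.98, 5.82 and 6.72 in AGO2 null and 5.83, 6.43 and 6.04 in Dicer null. Wild type was the highest in both, but in the first AGO2 null replicate 3 came level with the lowest wild-type sample. The index differed by 1.21 and 1.20 and by 1.14 and 1.03, and 4 others of the gene were higher by over 0.5 against both null lines. Sptbn1, the beta-spectrin of the membrane skeleton, was the only member among 1197 candidate probe sets of 46 cytoskeleton and adhesion genes. Its probe set 5422663 read 8.71, 8.64 and 8.59 in the wild-type samples, 7.86, 6.96 and 7.99 in AGO2 null and 8.12, 8.09 and 7.96 in Dicer null, and the differences were 1.11 and 1.04, with wild type above all null samples.

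The other higher members are given by their index differences. Rad23b, a shuttle of ubiquitinated proteins and a DNA repair factor, differed by 1.54 and 1.05. Patj, a scaffold of tight junctions, differed by 1.16 and 1.35. Lrrc40, a leucine-rich repeat protein, differed by 1.46 and 1.10, and Habp4, a protein that binds hyaluronan and RNA, by 1.05 and 1.28. Wild type was clear of the null samples in these 4. Pcnx3, of the pecanex family, differed by 1.06 and 1.29, and Plbd2, a lysosomal protein, by 1.17 and 1.01, and both overlapped. At the limit on the null lines, Cc2d1b and Rad23b were the last kept, with null lines 0.49 apart, and Wbp2 5201821 and Me1 4679378 the first left out, at 0.51. Me1, the malic enzyme of the cytosol, had differences of -2.49 and -1.98.

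Other readouts of the same arrays were set beside the members. In the gene-level table, which the rule did not use, 64 of the 71 member genes had a row, and 56 of these differed by at most 0.5 between wild type and either null line. The other 8, or 12.5%, were Adamts7, Fbxw17, Gmnn, Habp4, Pclaf, Pkia, Poli and Slc9a8, against 4.28% of the 3782 candidate genes with a row, and the row of Pclaf is the member itself. The rule computed the index from the log2 values of the member and of the other probe sets of its gene, so these are described without a reading of their own. The log2 value of the probe set, before the gene level was taken away, differed by 1 or more from both null lines in 19 of 22 higher and 53 of 62 lower members. The limits of the rule largely set this count, and its share over all candidates is not given. Of the 1310 other probe sets of the member genes, 1063 (81.1%) lay within 0.5 of both null lines, as did 89.9% of all candidates. Member genes had 5 to 64 probe sets with a median of 18, and candidate genes a median of 14. The members were dimmer and noisier than the candidates. Their mean lay under the 25th percentile of probe set means, 5.43, in 21 of the 84 members and in 4.59% of candidates. The median SD of the index within groups was 0.39 in members, with a range of 0.04 to 1.21, and 0.17 in candidates. In 39 of the 62 lower members the wild-type mean lay under 5.43, and in 8 of the 22 higher members the mean over both null lines did. The part of dim readings in these differences was not tested.

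The rule was also applied to 2 of the 3 replicates of each genotype and read in the third. Leaving out replicate 1, 2 or 3 of all genotypes gave 132, 84 and 146 probe sets. In the replicates held out, 96, 67 and 100 of these had the same sign in both comparisons, and 35, 37 and 33 differed by 1 or more in both. The median of the lesser difference, signed by the direction chosen, was 1.18, 1.22 and 1.21 in the replicates that chose and 0.32, 0.82 and 0.33 in those held out. The sets chosen with the replicates numbered 2 held 111 and 124 lower probe sets, and the set chosen without them 51. Of the 84 members, 51, 44 and 55 were in these sets. Both comparisons share the wild-type sample held out, so their signs are not independent. Shares over all candidates are not given. With no more than 1 line named per genotype, these values describe how arrays repeat and lend the members no further support.

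In limma's fit over all 112101 probe sets, with Benjamini-Hochberg adjustment, 17 members were higher and 38 lower than AGO2 null at an adjusted p under 0.05, where 1.67% of candidates were higher and 1.48% lower. Against Dicer null 17 were higher and 38 lower, with 1.06% and 0.947% of candidates. In both comparisons 17 were higher and 35 lower, where 0.277% of candidates were in each direction and 0.582% in any. AGO2 null was higher than Dicer null in 2 members and lower in none, where 1.25% and 1.36% of candidates were. The contrasts chose the members, so these shares give no support to them.

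Over all candidates the members were 0.129%, and limma called 1.67% higher and 1.48% lower in wild type against AGO2 null and 1.06% and 0.947% against Dicer null, so lists of this size hold few or no members at the overall share. The hand-made list of genes with known alternative exons held none. It does not include Col2a1 or Map3k7, which are also known to be alternatively spliced. Of its 1480 candidate probe sets in 67 genes, 39 were called higher and 26 lower in wild type against AGO2 null, and 40 and 8 against Dicer null, with 11 called against both. The medians of the index difference in the list were 0.02 and 0.02, and over all candidates 0.01 and 0.01. The 1092 candidate probe sets of 61 splicing factor genes held no member either, with 34 higher and 22 lower against AGO2 null and 9 and 11 against Dicer null. The 634 of 31 chromatin silencing genes held none, with 6 and 4 and with 2 and 2. The 520 of RNA silencing genes held Pan2, with 12 and 10 and with 1 and 4. No member lay in the 231 of 8 listed extracellular matrix genes or the 970 of 42 listed cell cycle genes, lists that do not include Col2a1, Melk, Gmnn or Pclaf. The 306 of 40 mitochondrial ribosomal protein genes held 2, or 0.654%, the 535 of 41 transmembrane protein (Tmem) genes held 5, or 0.935%, of which 4 were in Tmem18, and the 211 of the 5 collagen genes held the 4 of Col2a1, or 1.90%. Proteasome genes held 1 member, Psmb5, among 457 candidate probe sets of 37 genes, with 3 and 5 called against AGO2 null and 6 and 1 against Dicer null. The 45 ribosomal protein genes held 1, Rps3, among 415, with 3 and 14 and with 2 and 5.

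The member genes were spread over 18 chromosomes. They were 71 of 4098 candidate genes. The highest shares were on chromosome 13, with 8 of its 116 candidate genes, and chromosome 12, with 7 of 154. Chromosome 15 held 5 of 139, chromosome 14 held 5 of 149 and chromosome 4 held 7 of 250. None of the 217 on chromosome 1 or the 177 on chromosome 17 had a member. The counts are small, and their spread over chromosomes was not tested. Of the 71 genes, 5 (7.04%) lay within 10 protein-coding genes of another: Pus7 and Rint1 on chromosome 5, and Scfd1, Heatr5a and Snx6 on chromosome 12. The rule turned to the other genotypes gave 224 probe sets set apart in AGO2 null, 112 higher and 112 lower, and 78 in Dicer null, 26 higher and 52 lower. The AGO2 null set held 200 genes and the Dicer null set 66. Of those placed in the gene order, 22.3% and 16.7% lay within 10 of another. Such a share rises with the number of genes in a set, and the share for genes taken at random is not given. The share of lower probe sets was 73.8% in the wild-type set and 66.7% in the Dicer null set. The wild-type share moved with single arrays. Without wild-type replicate 1 the wild-type set held 21 higher and 116 lower probe sets, without replicate 2 it held 40 and 50, and without replicate 3 it held 25 and 124. A lesser difference of 2 or more was reached by 21.4% of the wild-type, 6.25% of the AGO2 null and 5.13% of the Dicer null set. No probe set was shared, since the rules leave no room for it. The genes Mtmr2, Mysm1, Ogdh and Pan2 had probe sets in both the wild-type and the AGO2 null sets, 4 of 71 and 4 of 200 genes. Fbxw17, Rnf121 and Serhl did in the wild-type and the Dicer null sets, 3 of 71 and 3 of 66. These differences between sets were not tested.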

How the data were processed

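RNA of 3 MEF genotypes was measured on 9 exon arrays. The authors deposited log2 values, per the file headers and values, in 2 tables, of genes and of exon probe sets. The sources used here do not give background correction, summarisation or normalization. Per the submitters' processing notes the build was mm8. Values were used as deposited, with no detection filter. Symbols came from the platform annotation, updated through RefSeq's GRCm38.p6 table: 209279 probe sets had 1 symbol, 4446 several and 15856 none, and 208810 matched the table. Gene order and promoters came from RefSeq's GRCm38.p6. The gene-level row of a gene is that of the highest mean.

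The index, the gene level and the members followed the rule given at the start of the results, which used all 3 contrasts. The members, gene lists and rule for named genes were chosen with earlier results of these data known. That rule took the 12 leading probe sets in each direction, genes with 2 or more members, members of the lists and the probe sets nearest the thresholds. The other members are named to account for the whole set, and probe sets that were no members were named after their values were seen. Limma 3.58.1 in R 4.3.3 (lmFit, eBayes without trend, 9 samples, group means) gave the share of calls over 112101 probe sets, at a Benjamini-Hochberg adjusted p under 0.05, and was tested on simulated data. Same-numbered samples deviated from their group means with correlations of -0.12 to 0.24, and samples of other numbers with -0.18 to 0.10. Between AGO2 null and wild type the same-number values were 0.05, 0.24 and 0.11, the highest for replicate 2. With Dicer null they were all negative. The numbers were not taken as pairs, and a fit with the replicate number as a block is given as an alternative. With 3 arrays per genotype, the number of arrays limits the precision. Alternatives covered scaling, an offset on dim values, the gene level, the thresholds of the rule and each sample left out.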

Additional observations from a re-analysis of the deposited data

How the results depend on the processing

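The rule gave 84 probe sets on the deposited values, 86 after quantile normalization (74 of them among the 84), 80 after median centring (75), 83 with the gene level taken without the probe set itself (64), 82 with the gene level from the gene-level table (46) and 63 in genes with 8 or more probe sets. It gave 30 with an offset of 50 on the linear scale (25 among the 84), 54 with the gene level as the mean (39), 46 without dim probe sets (39), 203 with no filter on gene level and 660 with no limit on the change of the gene level. It gave 26 at an index difference of 1.5, 181 at 0.8, 27 with gene levels within 0.25 and 53 with null lines under 0.25 apart. Leaving out 1 sample gave 73 to 149, with 137 without wild-type replicate 1, 90 without replicate 2 and 149 without replicate 3, and leaving out a replicate number in all genotypes gave 84 to 146. By alternatives added after seeing the data, 63 members had wild-type samples outside the null range, and 39 had each wild-type sample 1 or more from both null means. Both counts rest on the contrasts that chose the members. Of 2672 index differences of members under alternatives, 2481 moved by less than the spread within groups, 190 moved by more, and 1 reversed: Pan2 5202016 against AGO2 null, to 0.0366 with the offset. Leaving out 1 sample cannot move a difference by more than that spread, and median centring leaves the index as it is. Many of the 2481 were therefore fixed in advance, and their number is no measure of stability. Of the 190, 123 came with the offset of 50 and 30 with the gene level as the mean. A further 22 came with the gene level from the gene-level table and 5 with it taken without the probe set itself. The last 10 came without replicate 2 of both wild type and AGO2 null.

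Index calls by limma over all probe sets were 6210 for wild type against AGO2 null, 6965 against Dicer null and 6263 between the null lines. With the replicate block they were 4271, 5616 and 4741. A fit over the 6 samples compared gave 2048 for wild type against AGO2 null and an offset of 50 gave 9482. Leaving out 1 sample gave 2444 to 6417, 4380 to 7351 and 3386 to 6919, and without replicate 2 of wild type and of AGO2 null the counts were 4300, 6221 and 7827. The causes of these moves were not tested. Dim signal limits what can be said of members near the floor of their probe set: 11 lower members in wild type, and 2 higher members in the mean over both null lines, were under the 10th percentile of probe set means, 3.87.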
